A study of Mus musculus with 30 samples.

Results

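The 3 Nr4a nuclear receptors and Npas4 were followed in RNA from the dorsal hippocampus of mice trained in an object location task. The members are 4 genes, Nr4a1, Nr4a2, Nr4a3 and Npas4, chosen by symbol from a table of 24883 rows, and each has 1 row. The study asked how CREST, a subunit of the neuronal nBAF chromatin remodelling complex encoded by Ss18l1, takes part in memory through a tyrosine in its CBP-binding region. The table holds 30 libraries, 1 per mouse, with 6 young adult male C57BL/6J mice of wild-type genotype in each of 5 conditions. VEH-HC mice stayed in the home cage and are labelled vehicle. The paper lists them among its infusion conditions, with the in vivo-jetPEI reagent and no DNA. Its methods give handling as their only treatment before tissue collection. VEH-T10 mice received the in vivo-jetPEI transfection reagent without DNA and a 10 min training period, which is long enough to form a lasting memory, and VEH-T3 mice received the same reagent and a 3 min subthreshold period. Y397F-T10 mice carried a plasmid for HA-tagged CREST carrying the point mutation Y397F, labelled phospho-null, and trained for 10 min. Y397D-T3 mice carried a plasmid for HA-tagged CREST carrying the point mutation Y397D, labelled phosphomimetic, and trained for 3 min. The plasmids used a miniCaMK2 promoter, which favours excitatory neurons, on top of the animals' own Ss18l1, and were infused on both sides 3 days before training. Tissue was taken 1 h after training ended. No condition carried a plasmid for unmutated CREST, so the mutation and the added CREST cannot be told apart. The home cage mice did not enter the training chamber, so exposure to the chamber and learning cannot be told apart in any comparison with VEH-HC.

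Nr4a1, Nr4a2 and Nr4a3 encode orphan nuclear receptors that act as transcription factors without a known hormone. Nr4a1 and Nr4a3 are immediate-early genes in hippocampal neurons: calcium and cAMP signals act through phosphorylated CREB and its coactivator CBP to switch them on within minutes, without new protein synthesis. Nr4a2 responds to the same signals and is also a constitutive marker of dopamine neurons, the claustrum and cortical layer 6b. Npas4 encodes a bHLH-PAS factor that depends closely on calcium entry, pairs with an ARNT protein and controls activity-dependent genes such as Bdnf. The cAMP response element (CRE) is the CREB binding site, and its half-site reads TGACG on one strand and CGTCA on the other.

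The promoters of the members are shown because these half-sites are a textbook route by which training could reach the Nr4a genes. The Npas4 promoter is shown beside them. Sequences are from RefSeq on GRCm38.p6, the assembly also called mm10, read 5′ to 3′ on the strand of the gene with half-sites in capitals. Positions count from the RefSeq transcription start, which is 0. In the GENCODE annotation Nr4a1 lies at chr15:101254269-101274795 on the plus strand, Nr4a2 at chr2:57106830-57124003 on the minus strand, Nr4a3 at chr4:48045153-48086447 on the plus strand and Npas4 at chr19:4984355-4990316 on the minus strand, and 0 other annotated genes overlap any of them. The stretches of Nr4a1 (chr15:101266596-101266845), Nr4a2 (chr2:57124004-57124253) and Nr4a3 (chr4:48045055-48045152) lie outside the annotated exons of their genes, and the stretch of Npas4 (chr19:4990129-4990158) lies in an exon of a longer transcript.
Nr4a1: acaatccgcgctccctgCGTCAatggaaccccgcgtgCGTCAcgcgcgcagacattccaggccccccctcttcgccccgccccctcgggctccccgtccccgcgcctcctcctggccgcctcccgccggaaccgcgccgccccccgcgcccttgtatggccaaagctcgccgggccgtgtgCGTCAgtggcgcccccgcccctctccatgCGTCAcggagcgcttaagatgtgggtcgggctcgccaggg
Nr4a2: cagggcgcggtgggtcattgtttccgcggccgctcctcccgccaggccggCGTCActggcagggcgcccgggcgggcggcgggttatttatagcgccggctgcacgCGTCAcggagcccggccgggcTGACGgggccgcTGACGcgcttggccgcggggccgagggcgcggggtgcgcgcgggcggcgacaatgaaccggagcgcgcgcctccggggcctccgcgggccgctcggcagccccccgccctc
Nr4a3: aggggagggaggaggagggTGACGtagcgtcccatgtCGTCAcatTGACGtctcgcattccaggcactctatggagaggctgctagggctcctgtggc
Npas4: ccgttcgaCGTCAcgggaTGACGtcggaag

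Each of the 3 Nr4a promoters held 4 half-sites within 300 bases, 250 before and 50 after the start, and the Npas4 promoter held 2. Of 32851 RefSeq promoter windows of that length, 5.01% held at least 2 half-sites and 0.231% held at least 4, counting both strands. None of the 4 windows held the full palindrome TGACGTCA, in which 2 half-sites overlap and which 1.79% of all windows held. Of the 28 early genes listed for comparison, 20 had a window, and 8 of these held at least 2 half-sites and 0 held 4 or more. The half-sites of Nr4a1 fell into 2 pairs, at -233 and -213 and at -69 and -40. Those of Nr4a2 lay between -200 and -111 and those of Nr4a3 between -231 and -147. The Nr4a3 half-site at -147 lies in a GENCODE exon, as do both of Npas4, and is not in the stretch printed, which shows 3. A match is a description of letters in the window and says nothing of whether CREB was bound.

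**Figure D1:**
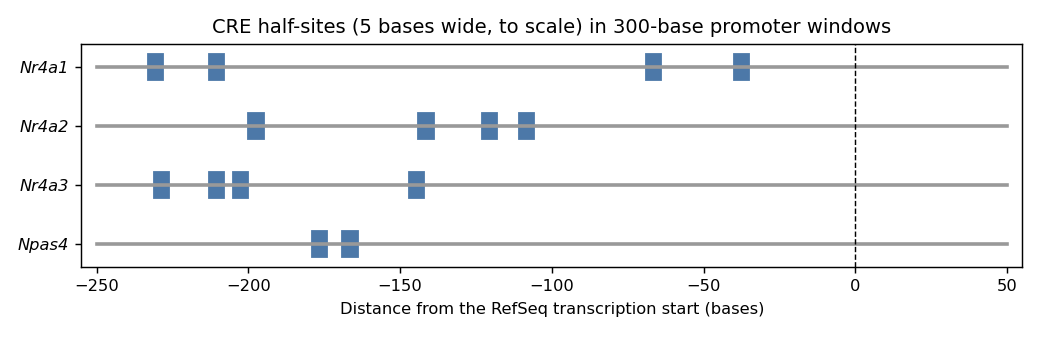
Positions of CRE half-sites (boxes, 5 bases wide) from 250 bases before to 50 bases after the RefSeq start of each member; the horizontal axis is the distance from the start in bases. The Nr4a promoters have 4 boxes each and Npas4 has 2, and every box lies upstream of the RefSeq start.

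Levels are FPKM, fragments divided by transcript length and library size, so genes can be set side by side. Over the 30 mice Nr4a1 averaged 26.3 FPKM, Nr4a3 18.5, Nr4a2 12.8 and Npas4 2.12. Nr4a1 exceeded Nr4a3 in 29 of 30 mice, Nr4a3 exceeded Nr4a2 in 28, and Nr4a2 exceeded Npas4 in 30. All 4 members passed the filter of a mean of at least 1 FPKM, which left 13184 rows to be tested.

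The spread of these levels between libraries was larger than the estimated counting error, and mouse, dissection and library preparation cannot be told apart in it. Depth is not recorded in FPKM, but single fragments leave steps in the values of weakly expressed genes with 1 transcript, and these steps put the libraries at about 18400000 to 28200000 fragments, with a median of 22600000. At that depth about 169 fragments lie behind a median Npas4 value, with a range of 62 to 290, and about 2153 behind a median Nr4a3 value. Counting error is then near 7.69% for Npas4 and 2.16% for Nr4a3, while the coefficient of variation among 6 mice had a median over the conditions of 31.0% and 11.1%. These fragment numbers are estimates that take the longest annotated transcript of each gene and a fragment of 200 bases. After removal of condition means, the log2 spread of Nr4a1 was 0.218, larger than that of 91.5% of the 1053 genes of like level, and that of Nr4a2 was 0.282, larger than in 90.9% of 1469 genes, or 0.168 and 80.7% without the 3 libraries described next.

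Summed markers of CA1 covered a narrower range over the libraries than those of the dentate gyrus and of glia. The summed FPKM of 7 CA1 pyramidal markers ranged from 186 to 277 over the libraries, with condition medians between 219 and 240. Single CA1 markers varied more: Wfs1 ranged from 18.4 to 72.6 FPKM in Y397F-T10, and Spink8 averaged 25.7 FPKM in VEH-HC against 33.0 to 36.2 in the trained conditions. Dentate granule markers summed to 47.6 to 156 FPKM, astrocyte markers to 325 to 1510 and microglia markers to 96.2 to 436 over all libraries. Mouse 1 of VEH-T10, of Y397F-T10 and of VEH-T3 stood apart. In their conditions these 3 libraries had the lowest sums of microglia (116, 115 and 96.2 FPKM), astrocyte (355, 326 and 325) and oligodendrocyte markers (1160, 1110 and 1240) and the highest sums of layer 6b and claustrum (32.0, 34.6 and 40.9) and cortex markers (49.4, 51.7 and 54.0). Their deviations from the condition means over all tested rows correlated with each other at 0.41 to 0.84. They also had the highest Nr4a2 of their conditions, 17.6, 16.3 and 23.4 FPKM, and results that rest on them are given without them as well, an alternative chosen after the data were seen. Y397D-T3 mouse 3 likewise had the lowest microglia (146 FPKM), astrocyte (431) and oligodendrocyte sums (1400) of its condition. Its layer 6b and claustrum sum (37.0), cortex sum (51.0) and Nr4a2 (17.2) were the highest there, and its Nr4a1 (21.0) the lowest. This library was kept among the 27 used when the 3 were left out. With those 27 libraries 185 rows were called higher and 527 lower in VEH-T10 against VEH-HC. Markers of cortical layer 6b and claustrum, 6 of 7 listed genes in the table, summed to 31.5 to 38.4 FPKM in VEH-HC, and their medians in the trained conditions were 26.1 to 27.4. Ctgf of that list had a mean of 4.57 FPKM in VEH-HC (3.67 to 6.09) against 1.93 to 3.08 in the trained conditions. The 5 thalamus markers summed to a mean of 28.4 FPKM in VEH-HC against 27.5 in VEH-T3 and 21.7 to 22.7 in the other trained conditions. Slc17a6 of that list differed more, with a mean of 4.39 in VEH-HC (3.6 to 5.06) against 1.49 to 2.49. The highest trained mice, both in VEH-T3, had 7.41 for Ctgf and 6.15 for Slc17a6. The choroid plexus marker Ttr ranged from 890 to 5430 FPKM in VEH-HC and from 5.89 to 12500 in the trained conditions. Clock output genes summed to 221 to 263 in VEH-HC, against medians of 208 to 216 after training. The highest mice of VEH-T3 (222) and Y397D-T3 (241) lay inside the VEH-HC range. Ss18l1 itself was at 11.4 to 13.3 FPKM in VEH-HC, 12.9 to 14.0 in Y397D-T3 and 11.4 to 14.0 in Y397F-T10, so its total level did not separate plasmid from vehicle mice. The part of tissue composition and time of day in the comparisons with VEH-HC was not tested.

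Nr4a3 was the member that separated trained from home cage mice. Its lowest, median and highest VEH-HC mice were at 12.4, 14.4 and 16.5 FPKM. After 10 min of training with vehicle these were 16.9, 19.5 and 24.0, so every VEH-T10 mouse lay above every VEH-HC mouse. The Y397F-T10 mice were at 17.5, 17.7 and 22.7 and the Y397D-T3 mice at 17.1, 19.1 and 26.0, again without overlap with VEH-HC. In VEH-T3 the values were 16.3, 19.3 and 21.3, and 5 of 6 mice lay above the highest home cage mouse. Few tested rows separated upward in this way. The share was 0.789% for VEH-T10 and 0.554% for Y397F-T10 after 10 min, and after 3 min 0.675% for VEH-T3 and 2.5% for Y397D-T3.

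The mean of Nr4a3 was 20.1 ± 3.13 FPKM (SD, n = 6) in VEH-T10, 38.1% above the 14.6 ± 1.4 of VEH-HC. On the log2(FPKM + 1) scale Nr4a3 rose in VEH-T10 by 0.43 (SE 0.097, limma adjusted p = 0.0299), one of 42 genes called higher, which is 0.319% of tested rows. In VEH-T3 it rose by 0.37 (adjusted p = 0.0282), where 2.23% of rows were called higher, and in Y397D-T3 by 0.42 (adjusted p = 0.0093), where 3.91% were. In Y397F-T10 the difference was 0.33 (95% interval 0.13 to 0.53) and missed the threshold with a limma adjusted p of 0.0871, where 0.47% of rows were called higher. The exact permutation test over these 12 mice gave p = 0.00216 for Nr4a3 in Y397F-T10, the smallest value that 6 against 6 allows, and the same p in VEH-T10 and Y397D-T3. Without the 3 libraries that stood apart the Nr4a3 differences from VEH-HC were 0.38 in VEH-T10, 0.35 for vehicle after 3 min and 0.42 in Y397D-T3, all still called by limma, and 0.27 in Y397F-T10 (adjusted p = 0.0878). Across all 5 conditions the limma F test was past the threshold for Nr4a3 (adjusted p = 0.0331), as it was for 2.64% of tested rows.

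Centring each library on its median log2 level raised the Nr4a3 difference to 0.46 in VEH-T10 and 0.39 in VEH-T3, but the limma adjusted p became 0.0611 and 0.0556. Centring also moved the share of higher genes among all calls against VEH-HC from 38.9% to 71.7% in VEH-T10 and likewise in the others: 41.6% became 71.4% (Y397F-T10), 43.2% became 70.1% (VEH-T3) and 55.3% became 73.6% (Y397D-T3). The Nr4a3 call in Y397D-T3 held in all 30 refits that left out 1 mouse, while the call in VEH-T10 held in 25 and the call in VEH-T3 in 24. The VEH-T10 call was lost without VEH-HC mouse 1, 2 or 5 or VEH-T10 mouse 4 or 6 (0.38 to 0.43 log2, limma adjusted p = 0.0573 to 0.105). The VEH-T3 call was lost without VEH-HC mouse 2, 4 or 5 or VEH-T3 mouse 2, 3 or 6 (0.33 to 0.38, adjusted p = 0.0545 to 0.0736), and also when the 12 libraries of that comparison were fitted alone (limma adjusted p = 0.083).

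**Figure D2:**
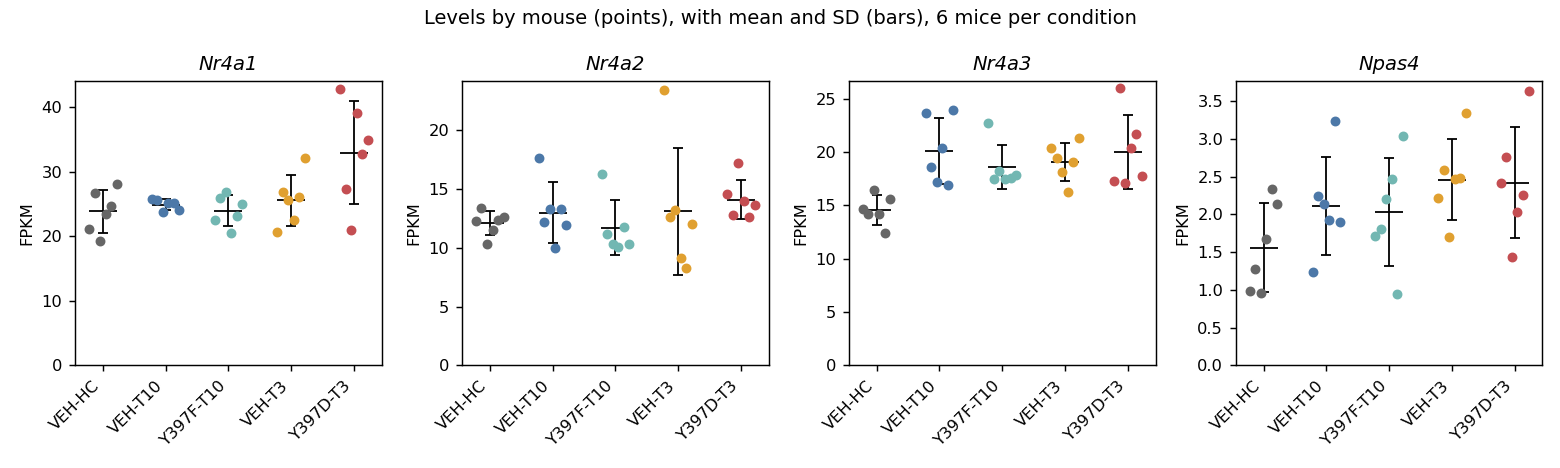
FPKM of each member (vertical axis) in every mouse of the 5 conditions; points are mice and bars are the mean and SD of 6. Nr4a3 lies between 12.4 and 16.5 in VEH-HC and at 16.3 or above in every trained mouse, and Nr4a1 spreads from 21.0 to 42.9 in Y397D-T3.

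The 4 trained conditions did not separate from each other in Nr4a3. Y397F-T10 differed from VEH-T10 by -0.10 log2 (95% interval -0.30 to 0.09), Y397D-T3 from VEH-T3 by 0.05 (-0.15 to 0.25), and VEH-T10 from VEH-T3 by 0.06 (-0.14 to 0.26). The intervals leave room for a plasmid difference in either direction that is smaller than the rise over the home cage. A 3 min period that is too short for lasting memory and a 10 min period gave Nr4a3 means of 19.1 ± 1.79 and 20.1 ± 3.13 FPKM. Of the tested rows, 0.0455% were called between VEH-T10 and VEH-T3, and 0 of the members.

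Nr4a1 was higher in Y397D-T3 than in the home cage, and this was its one call. The home cage mice ran from 19.2 to 28.1 FPKM with a median of 24.0. After the 10 min period the lowest, median and highest mice were at 23.8, 25.1 and 25.8 with vehicle and 20.5, 24.1 and 26.8 with Y397F. After the 3 min period with vehicle they were at 20.6, 25.9 and 32.1, and all of these ranges overlapped that of the home cage. In Y397D-T3 the 6 mice were at 42.9, 27.3, 21.0, 39.2, 32.7 and 35.0 FPKM. Thus 4 of the 6 lay above every VEH-HC and every VEH-T3 mouse, 1 lay just inside the upper end of the home cage range and 1 lay in its lower part.

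Mean Nr4a1 was 33.0 ± 7.96 FPKM (SD, n = 6) in Y397D-T3 against 23.9 ± 3.34 in VEH-HC, a rise of 38.4%, or 0.43 log2 (SE 0.121, limma adjusted p = 0.0307). That call held in 22 of the 30 refits that left out 1 mouse, and was lost without any of Y397D-T3 mice 1, 4, 5 and 6 (0.35 to 0.42 log2, limma adjusted p = 0.062 to 0.074) or of VEH-HC mice 1, 3, 4 and 5 (0.37 to 0.44, adjusted p = 0.0507 to 0.0743). With the 12 libraries of this comparison fitted alone the limma adjusted p was 0.0718, and the exact permutation test on the 12 mice gave p = 0.0368. With the 10 min period Nr4a1 differed from VEH-HC by 0.07 log2 (95% interval -0.18 to 0.32) in VEH-T10 and by 0.01 (-0.24 to 0.26) in Y397F-T10, and VEH-T3 differed by 0.10 (-0.15 to 0.35).

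The comparison that isolates the Y397D plasmid did not pass the threshold for Nr4a1. Y397D-T3 exceeded VEH-T3 by 0.33 log2 (95% interval 0.08 to 0.58, unadjusted limma p = 0.0112, adjusted p = 0.546), and the exact permutation test gave p = 0.0823. In that comparison 1 gene was called, 0.00758% of the tested rows. Y397F-T10 differed from VEH-T10 by -0.06 (-0.31 to 0.19), where limma called 0 rows (0%), while 256 rows were higher and 242 lower by an unadjusted p below 0.05. The difference between both plasmid differences was 0.39 for Nr4a1 (95% interval 0.04 to 0.74, limma adjusted p = 0.491), where 0.0303% of rows were called.

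Npas4 had the lowest level of the members and the highest median coefficient of variation over the conditions, 31.0%. The VEH-HC mice had 0.979, 1.28, 0.955, 1.67, 2.33 and 2.14 FPKM. The VEH-T3 mice had 2.21, 2.59, 1.70, 2.47, 2.48 and 3.34 FPKM, and the Y397D-T3 mice had 2.42, 2.76, 1.44, 2.03, 2.26 and 3.63. Of the VEH-T3 mice 4 lay above every home cage mouse, and of the Y397D-T3 mice 3 did, but both groups overlapped VEH-HC.

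Mean Npas4 was 1.56 ± 0.588 FPKM (SD, n = 6) in VEH-HC. With vehicle it was 2.11 ± 0.653 after the 10 min period and 2.46 ± 0.535 after the 3 min period. With the plasmids it was 2.03 ± 0.719 in Y397F-T10 and 2.42 ± 0.739 in Y397D-T3. The log2(FPKM + 1) differences of these 4 from VEH-HC were 0.29 (95% interval -0.07 to 0.64), 0.45 (0.10 to 0.81), 0.24 (-0.12 to 0.59) and 0.42 (0.07 to 0.78) in the same order, and the limma adjusted p ranged from 0.116 to 0.512. The added 1 draws these values toward 0: the ratio of mean FPKM was 1.58 for VEH-T3 and 1.55 for Y397D-T3. Exact permutation tests of Npas4 against VEH-HC gave p = 0.0195 in VEH-T3 and 0.0519 in Y397D-T3, or 0.091 and 0.182 adjusted over the 28 tests. In VEH-T10 and Y397F-T10 the unadjusted exact p was 0.149 and 0.253. Y397D-T3 differed from VEH-T3 by -0.03 (-0.38 to 0.32) and Y397F-T10 from VEH-T10 by -0.05 (-0.40 to 0.30). Npas4 transcripts are known to peak early after activity, and only the 1 h time point was measured here.

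Nr4a2 was not called in any comparison. Its lowest, median and highest values in the home cage were 10.3, 12.3 and 13.4 FPKM. After 10 min they were 9.98, 12.7 and 17.6 with vehicle and 10.1, 10.8 and 16.3 with Y397F. For the 3 min groups they were 8.25, 12.3 and 23.4 (VEH-T3) and 12.6, 13.8 and 17.2 (Y397D-T3). All trained ranges overlapped the home cage range, and 4 of 6 Y397D-T3 mice lay above it. The largest difference from VEH-HC was 0.21 log2 in Y397D-T3 (95% interval -0.11 to 0.53, limma adjusted p = 0.426), and the difference in VEH-T10 was 0.09 (-0.23 to 0.41). The exact permutation test for Nr4a2 in Y397D-T3 against VEH-HC gave p = 0.0152, or 0.0851 after adjustment over the 28 exact tests. Without the 3 libraries that stood apart the differences were 0.21 in Y397D-T3, 0.00 in VEH-T10, -0.15 in Y397F-T10 and -0.14 for vehicle after 3 min. Y397D-T3 then exceeded VEH-T3 by 0.34 log2 (limma adjusted p = 0.177), against 0.17 with all libraries (adjusted p = 0.805). Across the 5 conditions the limma F of Nr4a2 was 0.831 (adjusted p = 0.739) with all libraries and 4.45 (adjusted p = 0.0607) without those 3. The library with the highest Nr4a2 was thus left out of VEH-T10, Y397F-T10 and VEH-T3 but kept in Y397D-T3. There it was mouse 3 (17.2 FPKM), which also had the highest layer 6b and claustrum sum of its condition (37.0). A fit that left out this mouse as well was not run.

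**Figure D3:**
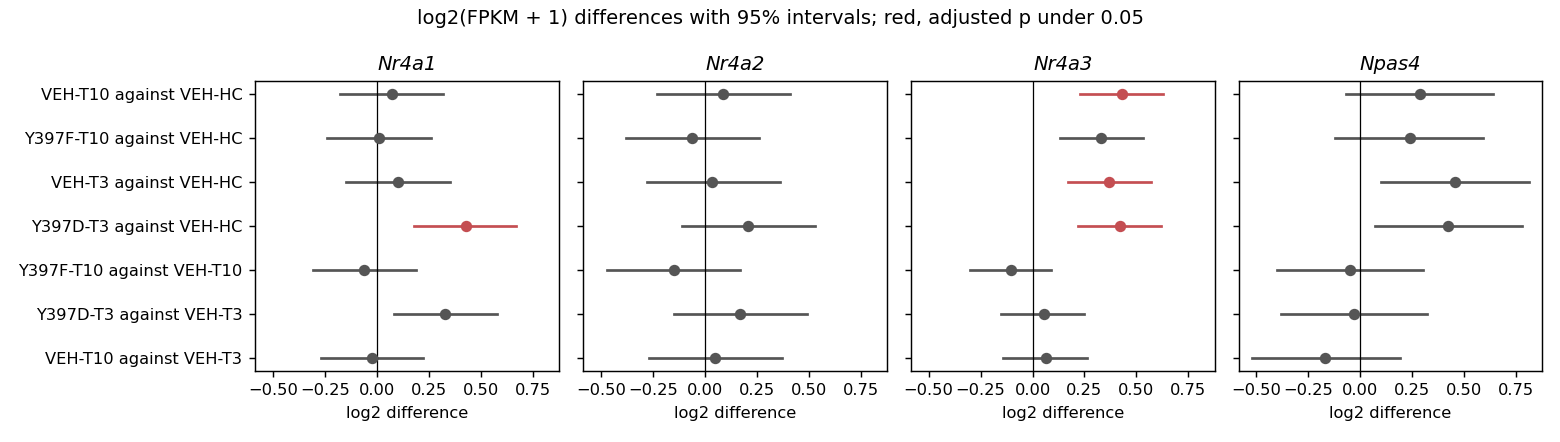
Differences in log2(FPKM + 1) (points) with 95% intervals (lines) for each member in 7 comparisons; red marks a limma adjusted p under 0.05. Nr4a3 is red in VEH-T10, VEH-T3 and Y397D-T3 against VEH-HC and Nr4a1 in Y397D-T3 against VEH-HC (0.43), and no interval between trained conditions is red.

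Nr4a2 varied among all 30 mice together with markers of layer 6b and claustrum, neurons in which it is a known marker, but not past the threshold without the 3 libraries that stood apart. After condition means were subtracted, Nr4a2 and the mean of that list correlated with Pearson r = 0.79 (permutation p = 0.00019, adjusted p = 0.00532) and Spearman rho = 0.60 (permutation p = 0.00083, adjusted p = 0.0116) over 30 mice. Without the 2 mice farthest from the median in Nr4a2 r was 0.68. Over the 27 other libraries r was 0.45 (permutation p = 0.0198, adjusted p = 0.138) and rho 0.41 (permutation p = 0.0445, adjusted p = 0.199), so the call rests on those 3 libraries. In pooled values r was 0.50 (permutation p = 0.00538, adjusted p = 0.0502) and rho 0.35, and r fell to 0.29 without the 2 mice farthest out in Nr4a2. The VEH-T3 mouse with 23.4 FPKM of Nr4a2 had the highest summed layer 6b and claustrum value of its condition, 40.9 FPKM, against a condition median of 26.1. Without that mouse the Nr4a2 difference of VEH-T3 from VEH-HC went from 0.04 to -0.14 log2.

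No pair of members passed the threshold in its correlation from mouse to mouse. A family of 28 correlation tests was run: 7 relations, pooled and with condition means subtracted, each with r and rho. With condition means subtracted, Nr4a1 and Nr4a3 gave r = -0.05 (permutation adjusted p = 0.851) and rho = -0.05 (0.833), and Nr4a3 and Npas4 gave r = -0.20 (0.515) and rho = -0.24 (0.512). Nr4a1 and Npas4 gave the highest values among the members, r = 0.39 (permutation p = 0.0463, adjusted p = 0.216) and rho = 0.33 (permutation p = 0.0964, adjusted p = 0.337), with r = 0.30 after the 2 mice with outlying Nr4a1 were left out. In pooled values that pair gave r = 0.45 (permutation p = 0.0128, adjusted p = 0.0897) and rho = 0.42. In the other pooled pairs r lay between -0.13 and 0.22.

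**Figure D4:**
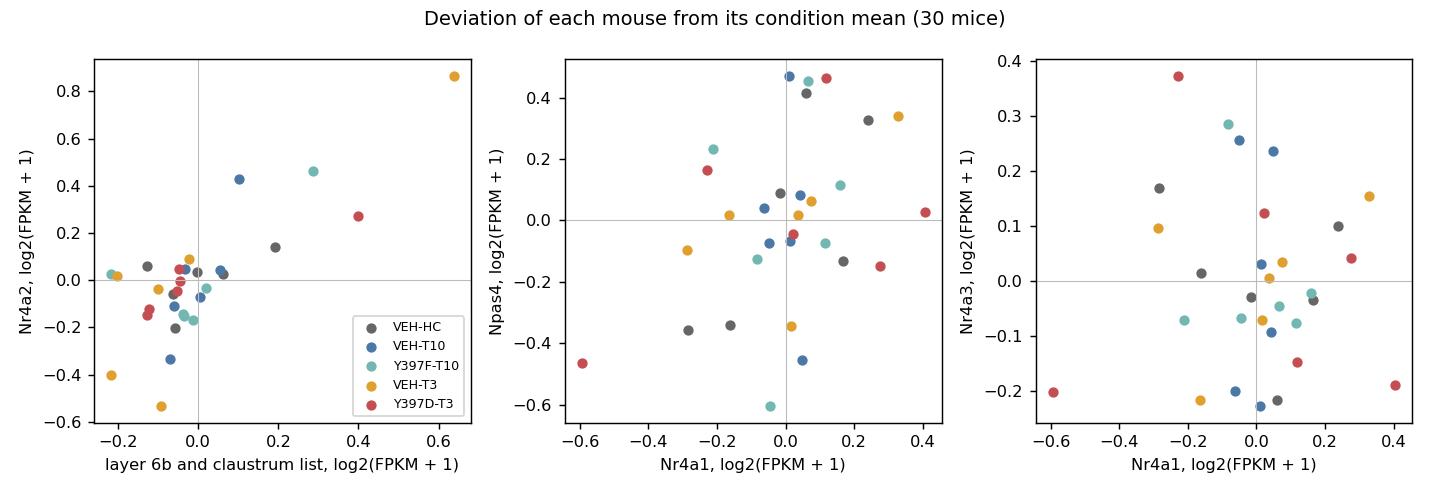
Deviation of each mouse from its condition mean in log2(FPKM + 1), coloured by condition, for Nr4a2 against the layer 6b and claustrum marker mean, Npas4 against Nr4a1 and Nr4a3 against Nr4a1. The points of the first panel rise together (r = 0.79), and those of the last panel do not (r = -0.05).

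Each member followed a different set of genes across the 30 libraries. By Pearson r of log2(FPKM + 1) over 13184 tested rows, the genes most like Nr4a1 were Arc (r = 0.88) and Junb (0.88), both immediate-early genes, then Nab2 (0.79), a corepressor of the Egr factors, Zfp598 (0.74) and Trim11 (0.73). With condition means subtracted, Arc and Junb were at 0.85 and 0.84. The genes most like Nr4a2 were Ankrd33b (0.84), Fezf2 (0.81), a transcription factor of deep cortical layers, Zfp365 (0.80), Chd5 (0.78) and Ank1 (0.78), and without the 3 libraries that stood apart these were at 0.60 to 0.75. Those most like Nr4a3 were Clstn2 (0.86), Shisa6 (0.85), Dock9 (0.85), Robo1 (0.84) and Thsd4 (0.83). For Npas4 they were 0610030E20Rik (0.73), Hnrnpm (0.70), Rhobtb1 (0.69), Dusp11 (0.68) and C630043F03Rik (0.66). The points share library and depth, and these genes were picked for their likeness, so the values are a description.

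Arc, which encodes a synaptic protein of activity-induced plasticity, had a mean of 37.4 ± 6.1 FPKM in the home cage. The means after 10 min were 40.8 ± 5.02 with vehicle and 33.1 ± 2.9 with Y397F, and after 3 min 42.9 ± 8.28 with vehicle and 54.1 ± 14.7 with Y397D. Junb had a mean of 43.3 ± 5.36 FPKM in VEH-HC, and 45.8 ± 5.47 with vehicle and 54.6 ± 11.2 with Y397D after 3 min (SD, n = 6 each). As for Nr4a1, the Y397D-T3 mice had the widest spread, with a coefficient of variation of 27.3% for Arc and 24.1% for Nr4a1.

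The early genes that respond to the same signals were listed apart from the members, 28 genes of which 27 passed the filter. Against VEH-HC, VEH-T10 had 2 that rose, Y397F-T10 had 3 that rose and 1 that fell, VEH-T3 had 4 that rose and Y397D-T3 had 8 that rose. These are 7.41%, 11.1%, 14.8% and 29.6% of the list called higher, against 0.319%, 0.47%, 2.23% and 3.91% of all tested rows. With the replicate number as a block 4 and 5 rose in VEH-T10 and Y397F-T10, for which no share over all rows is given. Median centring gave 4 in VEH-T10, where 33 of the 13184 tested rows were called higher. Without the 3 libraries that stood apart 6 rose in either 10 min condition, where 1.4% and 1.68% of all rows were called higher. Their median log2 difference was 0.13, 0.03, 0.08 and 0.18 in that order, against -0.03, -0.04, -0.04 and -0.03 over all tested rows. Homer1, which encodes a postsynaptic scaffold with an activity-induced short form, rose in all 4 conditions, from 16.1 ± 1.15 FPKM in VEH-HC to between 21.9 and 23.5 (0.42 to 0.52 log2). Egr1, a zinc finger factor of the same class, was called in VEH-T3 (0.61 log2) and in Y397D-T3 (0.55). In both 10 min conditions its difference was 0.47, with a limma adjusted p of 0.0651 in VEH-T10 and 0.0573 in Y397F-T10. Fosb, an AP-1 subunit, rose by 0.48 log2 in VEH-T10, 0.44 in Y397F-T10 and 0.35 in Y397D-T3, and its difference of 0.29 in VEH-T3 was not called (limma adjusted p = 0.114). Dusp1, a MAP kinase phosphatase, fell by 0.45 log2 in Y397F-T10 (limma adjusted p = 0.0358). Its differences of -0.41 in VEH-T10 (adjusted p = 0.0509), -0.24 in VEH-T3 and -0.20 in Y397D-T3 were not called. Between trained conditions 0 of the 27 were called by limma. In Y397D-T3 against VEH-T3 the 4 smallest p belonged to Egr4 (0.22 log2), Junb (0.23), Dusp5 and Arc (0.30), of which Egr4 had a limma adjusted p of 0.597, and 21 of 27 differences were positive, as were 50.9% over all tested rows.

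**Figure D5:**
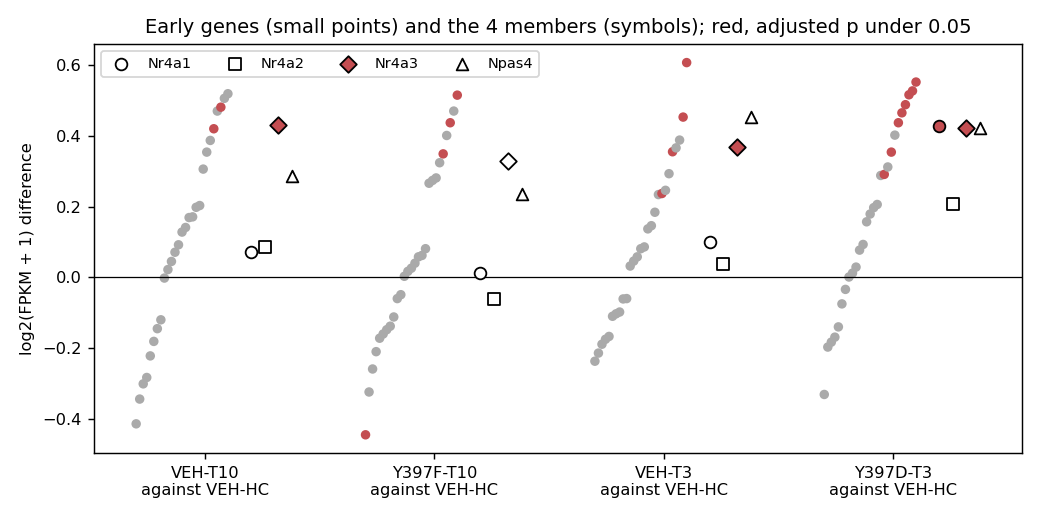
Differences from VEH-HC in log2(FPKM + 1) of 27 early genes (small points, ordered by size) and the 4 members (symbols) in each trained condition; red marks a limma adjusted p under 0.05. Red early genes number 2, 4, 4 and 8 from left to right, 1 of them below 0.

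Of 13 activators and coactivators upstream of the members, 3 rose in VEH-T3 and 3 with Y397D, or 23.1% of the list, against 2.23% and 3.91% of all rows. In the 10 min conditions limma called 0 higher. Without the 3 libraries that stood apart 3 rose in Y397F-T10, where the share of all rows called higher went from 0.47% to 1.68%. Crebbp, the gene of CBP, rose by 0.38 log2 in VEH-T3 (7.67 ± 0.704 against 5.71 ± 0.947 FPKM, limma adjusted p = 0.0091) and by 0.32 in Y397D-T3 (adjusted p = 0.0103). Creb1, the CRE-binding factor itself, rose by 0.23 in VEH-T3 (adjusted p = 0.0171). Mef2a, which with calcium signals drives Nr4a1, rose by 0.16 in both, and Srf, the serum response factor, by 0.19 in Y397D-T3. In Y397F-T10 Crebbp, Creb1 and Mef2a differed by 0.28, 0.20 and 0.16 without being called (limma adjusted p = 0.0596 to 0.0651). Their differences in VEH-T10 were 0.07, 0.11 and 0.07. Of 5 repressors, Ncor1 rose by 0.18 in VEH-T3 and 0.20 in Y397D-T3, and Hdac3, a deacetylase that removes the acetyl marks CBP places, was not called. Ncor1 alone is 20% of that list, beside the same 2.23% and 3.91% of all rows.

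Partners and reported targets gave few calls. Of all 13184 tested rows, 387 were called lower in VEH-T3 and 417 in Y397D-T3 against VEH-HC. Those called higher were 2.23% and 3.91% of the rows. Of the 3 retinoid X receptors, with which Nr4a1 and Nr4a2 can pair, Rxra fell by 0.26 log2 in VEH-T3 and by 0.31 in Y397D-T3 (limma adjusted p = 0.0103), and Rxrg fell by 0.74 in VEH-T3 (0.853 ± 0.777 against 1.94 ± 0.281 FPKM, adjusted p = 0.0495). Of 7 partners and reported targets of Npas4, Bdnf, a neurotrophin, rose in Y397D-T3 by 0.32 (14.2 ± 2.0 against 11.1 ± 1.17 FPKM, adjusted p = 0.0266), and 0 were called in the other trained conditions by limma. Without the 3 libraries that stood apart 1 rose in Y397F-T10, where the share of all rows called higher went from 0.47% to 1.68%. Of 11 endoplasmic reticulum chaperones and related genes reported as Nr4a targets, 0 rose with all libraries. Without the 3 libraries 2 of them rose in Y397F-T10, beside the same 1.68% of all rows. Canx, the lectin chaperone calnexin, fell by 0.21 in Y397D-T3 (67.3 ± 2.34 against 77.8 ± 2.98 FPKM, adjusted p = 0.00632). The list had a median difference from VEH-HC of 0.15 log2 in VEH-T10 and 0.17 in Y397F-T10, while for the 3 min groups it was 0.09 with vehicle and -0.01 with Y397D. Over all tested rows these medians were -0.025, -0.041, -0.035 and -0.034 in that order. For Y397D-T3 against VEH-T3 all 11 differences were negative with a median of -0.16 and 0 called by limma. Over all tested rows 50.9% of the differences in that comparison were positive, the median was 0.002 and 0.00758% were called.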

How the data were processed

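RNA from the dorsal hippocampus of 30 mice, 6 per condition, was sequenced as paired reads, 1 library per mouse. According to the submitters' processing notes and the study's methods, the authors aligned reads to mm10 with TopHat2 2.1.1 and computed FPKM with Cufflinks 2.2.1, and FPKM values are used as deposited. Normalization to mapped fragments makes a gene's value depend on all others in its library. Groups follow the sample labels, and 0 of the value columns were left out. The sources used here do not assign libraries to the NovaSeq or HiSeq instrument, so platform could not be modelled.

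Rows with a mean of at least 1 FPKM (13184 of 24883) were transformed to log2(FPKM + 1) and fitted with limma 3.58.1 (R 4.3.3). The model had a coefficient for each condition, used all 30 libraries and let the prior variance follow mean expression. P values were adjusted by Benjamini-Hochberg over all tested rows of a comparison, with a threshold of 0.05. On simulated data for Y397D-T3 against VEH-HC with 13184 genes, the same test recovered 70% of 50 genes changed by 0.5 log2 and 42% of 50 changed by 0.25. The changed genes were picked at random and all values varied independently. The members spread more than 74.1% to 91.5% of genes of like level, and recovery at their spread was not simulated. Exact permutation tests were 2-sided on log2(FPKM + 1), with 28 in all. Correlations used 100000 permutations, within conditions where condition means were subtracted, and Benjamini-Hochberg adjustment over the family of 28. Depth was estimated from the most frequent lowest step of FPKM times length in 2222 genes with 1 GENCODE transcript over 1500 bases. Simulated libraries gave errors of up to 4.64%. Other steps used scipy 1.17.1 and pandas 2.3.3 under Python 3.11.15, with figures from matplotlib 3.10.9.

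The members, gene lists and alternatives were chosen with earlier results of these data known. Named genes are the members, up to 4 genes of each pathway list with the smallest p in a comparison, the 5 genes most like each member and Ss18l1. From the marker lists Ctgf, Slc17a6 and Ttr are named, with Wfs1 and Spink8 as single CA1 markers. Alternatives were a pseudocount of 0.1, no filter, median centring, only the 12 libraries compared, the replicate number as a block, no trend, exact permutation and leaving out each mouse. Leaving out 3 libraries together (mouse 1 of VEH-T10, Y397F-T10 and VEH-T3) was added after the data were seen. The authors' own read counts and gene lists are not used here.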

Additional observations from a re-analysis of the deposited data

Results flagged for a closer look

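In 20 sets of 6 mice (4 members in 5 conditions), 3 highest values stood apart by Dixon's test, which flags about 1 in 20 groups by chance. Nr4a2 was 23.4 FPKM in VEH-T3 mouse 1, against 8.25 to 13.2 in the other mice of that condition. Nr4a2 was 16.3 FPKM in Y397F-T10 mouse 1 against 10.1 to 11.8, and Nr4a3 was 22.7 FPKM in the same mouse against 17.5 to 18.2. The summed layer 6b and claustrum markers were the highest of their condition in both mice, 40.9 FPKM in the VEH-T3 mouse and 34.6 in the Y397F-T10 mouse, and so were the cortex markers, 54.0 and 51.7 FPKM. Both mice also had the lowest sums of their conditions for microglia markers (96.2 and 115 FPKM), astrocyte markers (325 and 326), oligodendrocyte markers (1240 and 1110) and dentate granule markers (59.6 and 47.6). VEH-T10 mouse 1, whose Nr4a2 of 17.6 FPKM was the highest of its condition, had the lowest microglia, astrocyte and oligodendrocyte sums as well. The part of tissue composition in these values was not tested.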

How the results depend on the processing

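Over 36 results (4 members in 8 comparisons and the F test), 264 of 272 refits under other settings kept the direction and the side of the threshold. The smaller pseudocount (0.1), the unfiltered table, the fit without a trend and the replicate block changed 0 of them. With the replicate block Nr4a3 stayed at 0.43 log2 in VEH-T10 (limma adjusted p = 0.0353). The numbers were not taken to pair the mice, since 24 of 60 same-numbered pairs had r over 0.1 (-0.496 to 0.84, median 0.0416) rather than all. Mouse 1 of VEH-T10, Y397F-T10 and VEH-T3 did deviate together (0.41 to 0.84), and the other 57 pairs had a median of 0.0166. Leaving out these 3 libraries, chosen after the data were seen, turned Nr4a2 in VEH-T3 to -0.14 and kept the other 35 results. It turned the correlations of Nr4a2 with Nr4a3 to -0.0364 pooled and -0.299 within conditions, and within conditions those of Nr4a1 with Nr4a2 to 0.0683 and with Nr4a3 to 0.00535. It also ended the call of Nr4a2 with layer 6b and claustrum markers (0.452). The repressors called higher in VEH-T3 went from 1 to 2, and the share of all rows from 2.23% to 4.52%. The block raised the number of early genes called higher from 2 to 4 in VEH-T10 and from 3 to 5 in Y397F-T10. Median centring gave 4 in VEH-T10, where 33 of the 13184 tested rows were called higher. Ncor1 lost its call in VEH-T3 under centring, the block and no filter. Median centring ended the Nr4a3 calls at 0.46 in VEH-T10 and 0.39 in VEH-T3 and took its F to 5.83 (adjusted p = 0.0586). Fits of 12 libraries ended the calls of Nr4a3 in VEH-T3 (0.37) and Nr4a1 in Y397D-T3 (0.43), the latter also under exact tests adjusted over 28, which called Nr4a3 in Y397F-T10 (0.33). The cause of these changes was not tested. Centring turned the correlation of Nr4a1 and Nr4a3 within conditions to 0.0174.

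Leaving out 1 mouse gave these lowest and highest values. Against VEH-HC, Nr4a1 ranged from 0.35 to 0.55 in Y397D-T3 and from -0.04 to 0.06 in Y397F-T10, Nr4a2 from -0.14 to 0.14 in VEH-T3, and Nr4a3 from 0.38 to 0.48 in VEH-T10 and from 0.33 to 0.41 in VEH-T3. For VEH-T10 against VEH-T3, Nr4a1 ranged from -0.08 to 0.04 and Nr4a2 from -0.06 to 0.22. For Y397D-T3 against VEH-T3, Nr4a3 ranged from -0.02 to 0.09 and Npas4 from -0.12 to 0.06. For Y397F-T10 against VEH-T10, Npas4 ranged from -0.14 to 0.07, and its difference between both plasmid differences from -0.10 to 0.11. F ranged from 2.71 to 9.07 for Nr4a1, which passed only without Y397D-T3 mouse 3, and from 4.90 to 7.56 for Nr4a3, which failed without VEH-HC mouse 1, 2, 4 or 5 or Y397D-T3 mouse 4 or 5.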
